A study of Mus musculus with 12 samples.

Results

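The genes described here are 8 members of the glucocorticoid pathway, namely Nr3c1, Nr3c2, Hsd11b1, Fkbp5, Tsc22d3, Zbtb16, Sgk1 and Klf9, of the 18193 genes that a probe set of the array names alone. They were picked by symbol as known parts and targets of the pathway, with earlier results of these data known, and every probe set with such a symbol was kept, which gave 26 of 45037 probe sets. A probe set is a group of short oligonucleotides on the array that together read a stretch of a transcript, and its value is a fluorescence intensity on a linear scale. Hearts of male C57BL/6J mice aged 8 to 10 weeks were hybridised to 12 arrays, 3 for each of 4 groups: knockout-labelled DOX, WT DOX, knockout-labelled no treatment and WT no treatment. DOX hearts were taken 5 days after a single injection of doxorubicin, an anthracycline used against cancer, at 15 mg/kg. The study's methods give a higher dose, older mice, WT littermates and saline injections for the hearts without DOX, and they describe the altered mice as carrying a cardiac-specific CHIP transgene where the deposited labels say CHIP knockout.

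Stub1 encodes CHIP, a ubiquitin ligase and cochaperone of HSP70, and was measured first as a check of the labels. Its brighter probe set (1416580_a_at) read 5561, 7998 and 8723 in knockout-labelled DOX hearts, against 1944, 1949.87 and 1930.11 in WT DOX hearts. Without treatment it read 8762, 9817 and 9655 in knockout-labelled hearts, against 1857, 1831 and 1790.29 in WT hearts. Stub1 was therefore higher in the hearts labelled knockout, by 1.89 ± 0.13 on the log2 scale after DOX and by 2.34 ± 0.13 without treatment (SE, n = 3 per group; adjusted p = 0.000995 and 0.000225, limma). The other Stub1 probe set (1434412_x_at) differed by -0.08 after DOX and -0.04 without treatment, with overlapping arrays. Since the label and Stub1 disagree, these arrays are called knockout-labelled throughout, and no direction given for them is one of CHIP loss.

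Glucocorticoids, in the mouse mainly corticosterone, act through the glucocorticoid receptor, which waits in the cytosol in a complex with HSP90 and its cochaperones and moves to the nucleus once it binds hormone. There it binds short palindromic DNA elements and raises the transcription of genes such as Fkbp5, Tsc22d3, Zbtb16, Sgk1, Klf9 and Per1, and these transcripts are commonly read as a record of recent hormone exposure. Heart muscle cells carry both the glucocorticoid and the mineralocorticoid receptor, and the mineralocorticoid receptor binds corticosterone as well. Fkbp5 closes a feedback loop, because its protein sits on the receptor complex and lowers its affinity for hormone.

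The 12 arrays had close medians, from 28.9 to 30.4, and 51.4% of all probe sets had a mean intensity under 32. Of the 26 member probe sets 21 had a mean of at least 32, and the 5 dim ones belong to Nr3c1 (1421866_at and 1431378_at), Fkbp5 (1447736_at), Tsc22d3 (1444365_at) and Klf9 (1452723_at). These 5 stayed in every count below. Cardiomyocyte markers were bright on all arrays, with Tnnt2, cardiac troponin T, between 16156 and 17829, while Myl7, the atrial myosin light chain, averaged 32.5. In the knockout-labelled no treatment group replicate 3 stood apart from replicates 1 and 2 at several members. Fkbp5 (1416125_at) read 654 there, 3.33 times the mean of 197 of the other 2 arrays of that group. Sgk1 read 2611 there, 2.21 times the mean of 1181, and was the highest of all 12 arrays. Nr3c2 read 99.1 there, 0.598 of the mean of 166, and was the lowest of all 12 arrays. The results that this array moved most are also given without it. The labels call the 3 hearts of a group biological replicates, and whether RNA of several hearts was pooled is not given in the sources used here.

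To show where the receptor's DNA element lies at the members' start sites, the RefSeq promoter windows of GRCm38.p6, from 250 bases before to 50 after each start site, were searched on both strands for the palindrome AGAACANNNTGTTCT and for its hexamer AGAACA. Windows were at hand for 6 of the 8 members (13 windows), and Nr3c1 and Zbtb16 had none. The hexamer occurred in 6233 of 32851 windows of all genes (19%), and the full palindrome in 3 (0.00913%). A single member window, at Sgk1, was among these 3. It is printed with the palindrome in capitals. A further hexamer of that window, from position -242 and read on the other strand, is left in small letters. Beside this window stand a Tsc22d3 window with its lone hexamer in capitals (read on the other strand) and the Fkbp5 window, which holds neither. Each runs 5′ to 3′ on the strand of the gene, and the letters say nothing about whether the receptor was bound. Only exact matches inside these windows were searched for, so elements elsewhere or with other letters were not seen.
Sgk1, chr10:21993640-21993939 (+ strand), palindrome from position -189 relative to the start site: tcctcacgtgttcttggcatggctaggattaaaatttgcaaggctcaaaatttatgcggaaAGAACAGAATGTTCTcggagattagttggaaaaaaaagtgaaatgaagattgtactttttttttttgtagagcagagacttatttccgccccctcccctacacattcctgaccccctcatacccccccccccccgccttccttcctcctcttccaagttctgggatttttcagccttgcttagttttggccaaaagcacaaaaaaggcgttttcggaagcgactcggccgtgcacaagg
Tsc22d3, chrX:140600473-140600772 (- strand), hexamer from position -185: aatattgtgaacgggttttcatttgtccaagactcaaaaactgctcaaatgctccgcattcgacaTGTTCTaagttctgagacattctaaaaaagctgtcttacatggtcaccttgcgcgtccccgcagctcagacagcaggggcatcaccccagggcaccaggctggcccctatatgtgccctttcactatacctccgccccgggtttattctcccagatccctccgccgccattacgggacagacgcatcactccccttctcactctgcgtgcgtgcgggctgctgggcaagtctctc
Fkbp5, chr17:28486100-28486399 (- strand), no match: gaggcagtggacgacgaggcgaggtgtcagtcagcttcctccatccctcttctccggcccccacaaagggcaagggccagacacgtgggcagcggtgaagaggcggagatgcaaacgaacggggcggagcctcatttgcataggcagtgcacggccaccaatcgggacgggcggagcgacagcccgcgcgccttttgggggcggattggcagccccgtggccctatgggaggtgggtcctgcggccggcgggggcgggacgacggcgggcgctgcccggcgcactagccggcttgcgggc
Another 2 Sgk1 windows held a lone hexamer, and the windows of Klf9, Hsd11b1 and Nr3c2 held none.

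The study asked how the heart responds to DOX and whether the CHIP alteration changes that response. Of the 26 member probe sets, 2 passed the test for a DOX response in knockout-labelled hearts, both of Nr3c1 and both lower after DOX. None was called higher, where 0.731% of all probe sets were called higher and 1.47% lower. In WT hearts 2 passed, again both of Nr3c1 and both lower, and none was called higher, where 1.66% of all probe sets were called higher and 1.4% lower. A call means an adjusted p under 0.05 (limma, Benjamini-Hochberg over all 45037 probe sets). In knockout-labelled hearts the 3 DOX arrays lay wholly above the 3 arrays without treatment in 12 of 26 member probe sets and wholly below in 3, where 11.1% and 9.59% of all probe sets did so. In WT hearts they lay wholly above in 10 and wholly below in 4, where 11.6% and 12.8% of all probe sets did so. At an unadjusted p under 0.05 the counts were 12 higher and 3 lower in knockout-labelled hearts, and 10 higher and 4 lower in WT hearts, where 16.2% of all probe sets in knockout-labelled hearts and 18.8% in WT hearts had such a p in either direction. Several of these probe sets read the same gene and are not independent.

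No member passed the test for a DOX response that differs between the genotypes, as given with the interaction. The mean of both responses, 6 DOX hearts against 6 without treatment in the same fit, was therefore added after the values had been seen. In it 12 member probe sets rose and 4 fell, where 4.56% of all probe sets rose and 4.59% fell. Fkbp5, Zbtb16, Klf9 and Tsc22d3 rose and Nr3c1 fell, while Sgk1, Hsd11b1 and Nr3c2 did not pass. The median log2 fold change of the 26 was 0.29, against 0.00 over all probe sets. The count of 16 calls was 17 without replicate 3 of the knockout-labelled no treatment group. It was under 11 without any single one of 5 other arrays: 6 without WT no treatment replicate 3, 7 and 10 without knockout-labelled DOX replicates 1 and 2, and 9 and 8 without WT DOX replicates 1 and 2.

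**Figure D1:**
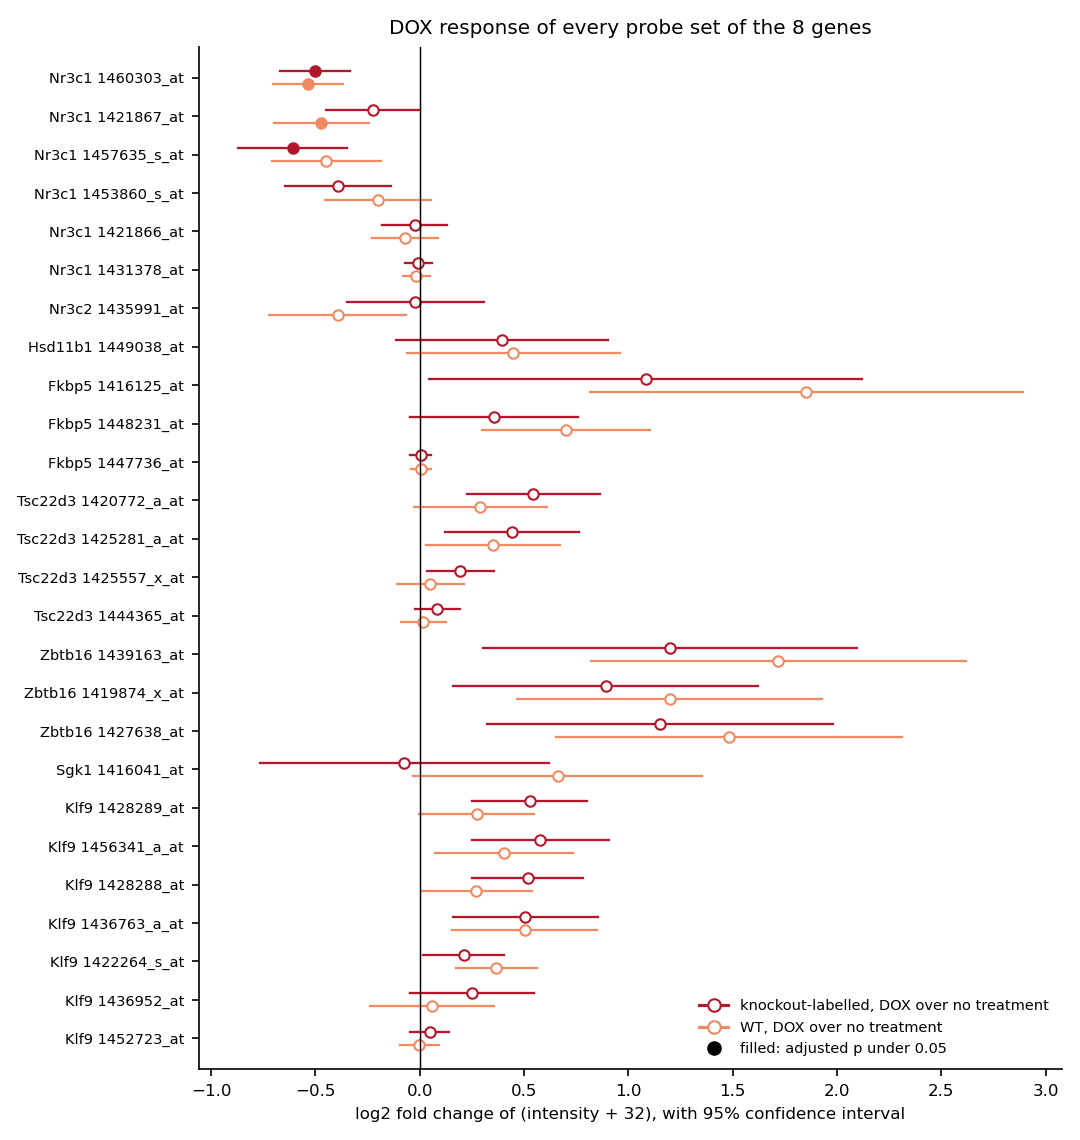
Log2 fold change of (intensity + 32), DOX over no treatment, with its 95% confidence interval, for every probe set of the 8 genes in knockout-labelled hearts (dark red, upper) and WT hearts (orange, lower). Filled points passed an adjusted p under 0.05, and all 4 of these are Nr3c1 probe sets below 0.

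Nr3c1 encodes the glucocorticoid receptor and was lower after DOX in both genotypes. Its brightest probe set (1460303_at) read 335, 327 and 389 in knockout-labelled DOX hearts, against 492, 527 and 507 in knockout-labelled hearts without treatment. In WT hearts it read 328, 345 and 372 after DOX, against 516, 477 and 569 without treatment. All 6 DOX hearts lay below all 6 hearts without treatment, and the genotypes overlapped within each treatment. It fell by 0.50 ± 0.08 on the log2 scale in knockout-labelled hearts, 1.42-fold lower (SE, n = 3 per group; adjusted p = 0.0159, limma). In WT hearts it fell by 0.54 ± 0.08, 1.45-fold lower (adjusted p = 0.0145, limma). Averaged over both it fell by 0.52 ± 0.05, with an adjusted p of 0.00153 (limma) and an exact permutation p of 0.00216 (two-sided, 6 against 6), the smallest such a test can give. This averaged fall kept its call without each of the 12 arrays in turn, its adjusted p going no higher than 0.00538. The call in knockout-labelled hearts was lost without DOX replicate 1 or 2 of that genotype, and the call in WT hearts without WT DOX replicate 2 or WT no treatment replicate 3.

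The other bright Nr3c1 probe sets lay lower after DOX as well. At 1457635_s_at the intensity was 108, 105 and 112 in knockout-labelled DOX hearts, against 164, 189 and 195 without treatment, and 94.8, 135 and 129 in WT DOX hearts, against 161, 156 and 207 without treatment. Both genotypes were free of overlap between the treatments, and the fall was called in knockout-labelled hearts (-0.61, adjusted p = 0.0333, limma) and not in WT hearts (-0.45, adjusted p = 0.072). The call at 1421867_at went the other way, with -0.47 in WT hearts (adjusted p = 0.0409, limma) and -0.22 in knockout-labelled hearts (adjusted p = 0.313). The interaction was called at neither, so a difference between the genotypes is not shown. The call at 1457635_s_at (adjusted p = 0.0832 without knockout-labelled no treatment replicate 3) was lost without 5 of the 12 arrays, each left out alone (all 3 knockout-labelled DOX arrays and knockout-labelled no treatment replicates 2 and 3), and that at 1421867_at without 8, among them all 6 WT arrays. Averaged over both genotypes, all 4 bright probe sets fell (log2 fold changes from -0.53 to -0.29), the dimmest of them (1453860_s_at) keeping its call without 4 of the 12 arrays and the others without all 12. The 2 dim ones, which read about 15.1 and 10.4 on average, differed by -0.05 and -0.01. In RNA of the heart as a whole, fewer cells of a type that carries a transcript and less of that transcript per cell cannot be told apart.

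Markers of other cell types moved in the same hearts. The summed intensity of 9 fibroblast markers ran from 12762 to 14566 in knockout-labelled DOX hearts, against 16257 to 24266 without treatment, and from 10251 to 11173 in WT DOX hearts, against 12371 to 15554 without treatment. The 9 macrophage markers summed to 3539 to 4329 in knockout-labelled DOX hearts, against 3779 to 6587, and to 2439 to 3412 in WT DOX hearts, against 4159 to 5242. The 9 cardiomyocyte markers summed to 122251 to 134487 in knockout-labelled DOX hearts, against 134580 to 140402, and to 107837 to 128573 in WT DOX hearts, against 128035 to 136672. In the averaged DOX response 5 of 9 fibroblast and 4 of 9 macrophage markers fell and none rose, among them Lum, a collagen-binding proteoglycan (-1.26), and Cd68, a macrophage lysosomal protein (-0.80). Of the other markers Actc1, Ryr2, Kdr, Tek, Acta2, Cspg4 and Alas2 fell, Pparg of the adipocyte list rose, and no neutrophil or lymphocyte marker passed. The part of these shifts in the fall of Nr3c1 and in the results below was not tested.

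Nr3c2 encodes the mineralocorticoid receptor and was read by a single probe set (1435991_at). It read 139, 126 and 148 in knockout-labelled DOX hearts, against 182, 149 and 99.1 without treatment, and 127, 144 and 145 in WT DOX hearts, against 186, 209.5 and 183 without treatment. WT hearts without treatment were the highest group and did not overlap any other, while the remaining 3 groups overlapped. Neither DOX response of Nr3c2 passed, with -0.02 in knockout-labelled hearts (adjusted p = 0.973, limma) and -0.39 in WT hearts (adjusted p = 0.18). Without replicate 3 of the knockout-labelled no treatment group, the lowest array, the WT response was called (adjusted p = 0.0305, limma) and so was the averaged response (-0.31, adjusted p = 0.0163), against -0.21 with it (adjusted p = 0.275). The difference in knockout-labelled hearts was then -0.22 (adjusted p = 0.306).

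Hsd11b1 encodes the enzyme that regenerates active glucocorticoid from its inert form inside cells. It read 1078, 832 and 664 in knockout-labelled DOX hearts, against 631, 499 and 803 without treatment, and 1171, 1247 and 773 in WT DOX hearts, against 718, 694 and 863 without treatment. The mean was higher after DOX in both genotypes, with an overlap in each. The averaged difference was 0.42 ± 0.16, with a 95% confidence interval from 0.06 to 0.78, and did not pass (adjusted p = 0.146, limma).

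**Figure D2:**
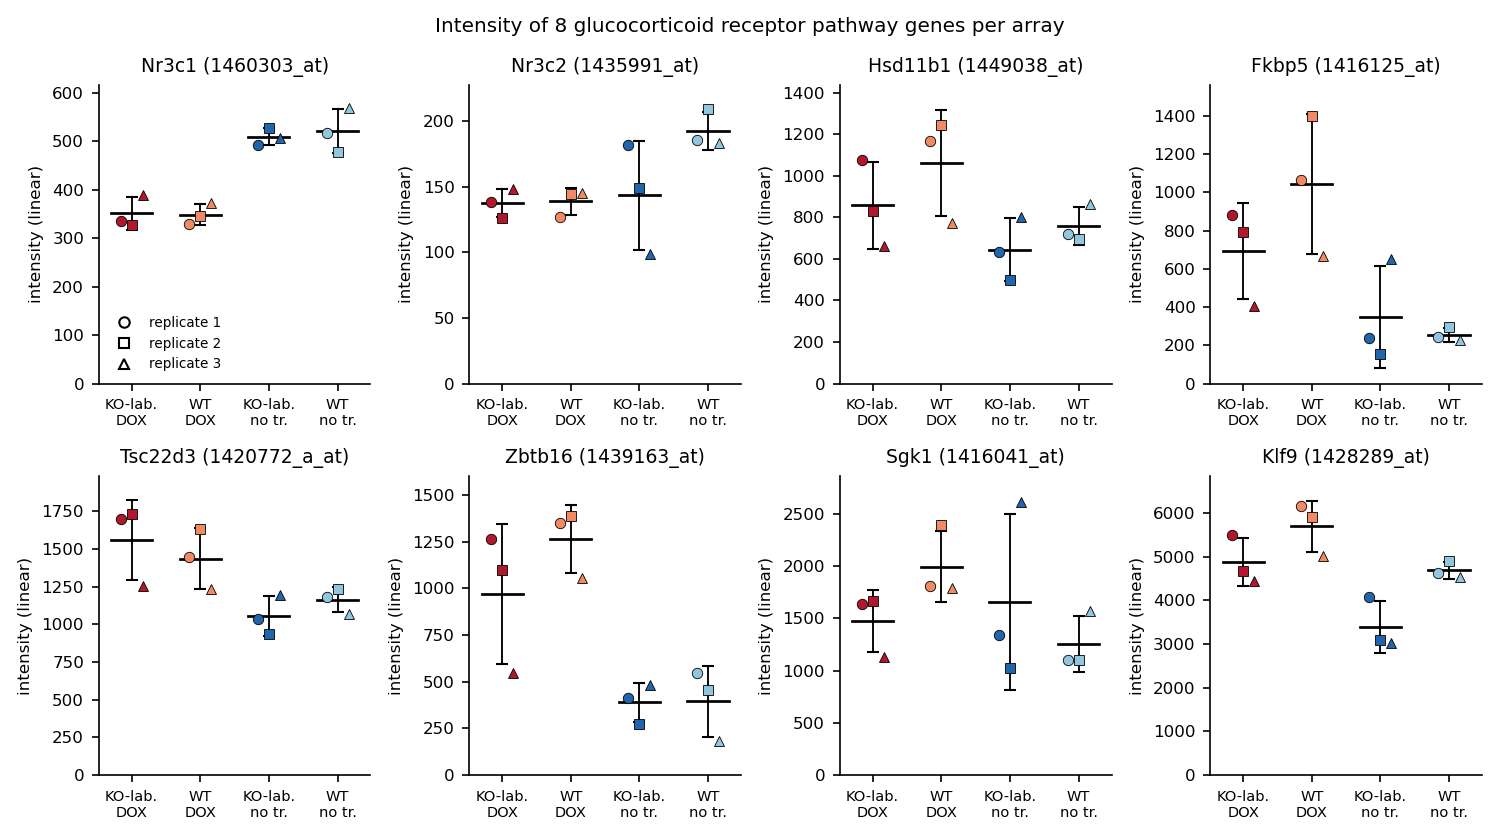
Linear intensity of the brightest probe set of each gene on each array (symbols for replicates 1 to 3), with group mean and SD (n = 3), for knockout-labelled (KO-lab.) and WT hearts after DOX and without treatment (no tr.). Nr3c1 lies lower after DOX with no overlap, Zbtb16 lies higher with no overlap in either genotype, and Fkbp5 and Sgk1 show the high replicate 3 of the knockout-labelled no treatment group.

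Fkbp5 encodes the HSP90 cochaperone FKBP51 that restrains the receptor and is itself a receptor target. Its brightest probe set (1416125_at) read 884, 791 and 405 in knockout-labelled DOX hearts, against 238, 155 and 654 without treatment. In WT hearts it read 1063, 1399.73 and 668 after DOX, against 241, 295 and 228 without treatment. The WT groups were apart, with the lowest DOX heart over 2 times the highest untreated one, and the knockout-labelled groups overlapped through replicate 3 of both, the high untreated heart and the low DOX heart. The differences were 1.85 ± 0.46 in WT hearts (3.61-fold; adjusted p = 0.0627, limma) and 1.08 ± 0.46 in knockout-labelled hearts (2.12-fold; adjusted p = 0.285). Averaged over both genotypes Fkbp5 rose by 1.47 ± 0.33, or 2.77-fold (adjusted p = 0.024, limma; exact permutation p = 0.00433, two-sided). Without the outlying array the rise in knockout-labelled hearts was 1.62 (adjusted p = 0.0722), that in WT hearts was called (adjusted p = 0.0212) and the averaged rise was 1.74 (adjusted p = 0.00511). The averaged call was lost without any one of 6 arrays, with an adjusted p of at most 0.0624: replicates 1 and 2 of both DOX groups, knockout-labelled no treatment replicate 1 and WT no treatment replicate 3. The other bright probe set (1448231_at) rose by 0.53 in the averaged response (adjusted p = 0.031, limma), and the dim one read between 4.36 and 5.39 on every array.

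Zbtb16 encodes PLZF, a zinc finger transcription repressor that glucocorticoids induce in many tissues. Its brightest probe set (1439163_at) read 1266, 1096 and 547 in knockout-labelled DOX hearts, against 413, 275 and 481 without treatment, and 1350.4, 1389.55 and 1056 in WT DOX hearts, against 549, 454 and 181 without treatment. All 3 of its probe sets were free of overlap between the treatments within each genotype. The difference at the brightest was 1.72 ± 0.40 in WT hearts (3.29-fold; adjusted p = 0.0522, limma) and 1.20 ± 0.40 in knockout-labelled hearts (2.30-fold; adjusted p = 0.168). Averaged over both, the 3 probe sets rose by 1.46, 1.04 and 1.32, or 2.75-fold, 2.06-fold and 2.49-fold (adjusted p = 0.0141, 0.0231 and 0.0153, limma). The calls at 1439163_at and 1427638_at held without each of the 12 arrays in turn, and that at 1419874_x_at was lost without knockout-labelled DOX replicate 1 or 2 or WT DOX replicate 2. Without replicate 3 of the knockout-labelled no treatment group the WT response at 1439163_at passed (adjusted p = 0.04998, limma).

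Klf9 encodes a Krüppel-like transcription factor that responds to glucocorticoid and thyroid hormone. Its brightest probe set (1428289_at) read 5498, 4684 and 4438 in knockout-labelled DOX hearts, against 4073, 3083 and 3018 without treatment. In WT hearts it read 6153, 5905 and 5024 after DOX, against 4624, 4914 and 4544 without treatment. Neither genotype overlapped between the treatments. The differences of 0.53 ± 0.12 in knockout-labelled hearts (1.44-fold; adjusted p = 0.0626, limma) and 0.27 ± 0.12 in WT hearts (1.21-fold; adjusted p = 0.275) did not pass. Averaged over both genotypes 5 of the 7 Klf9 probe sets rose, by 0.29 to 0.50 (adjusted p from 0.0197 to 0.0224, limma), and 1436952_at (0.15) and the dim 1452723_at (0.02) did not pass. Each of the 5 lost its call without WT no treatment replicate 3, with an adjusted p of at most 0.0584, and the brightest also without knockout-labelled DOX replicate 1 or WT DOX replicate 1 or 2.

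Tsc22d3 encodes GILZ, a leucine zipper protein through which glucocorticoids dampen inflammatory signalling. Its brightest probe set (1420772_a_at) read 1698, 1732 and 1256 in knockout-labelled DOX hearts, against 1033, 937 and 1196 without treatment, and 1445, 1635 and 1232 in WT DOX hearts, against 1182, 1237 and 1072 without treatment. The groups were apart in knockout-labelled hearts and overlapped in WT hearts. The differences were 0.54 ± 0.14 (adjusted p = 0.085, limma) in knockout-labelled hearts and 0.29 ± 0.14 (adjusted p = 0.315) in WT hearts. Averaged over both, this probe set rose by 0.42 and 1425281_a_at by 0.40 (adjusted p = 0.0311 and 0.0398, limma), while 1425557_x_at (0.12) and the dim 1444365_at (0.05) did not pass. These 2 calls were the least stable of the rises, kept in 3 and 4 of the 12 fits that left out a single array, with adjusted p of at most 0.0788 and 0.0959.

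Sgk1 encodes a kinase that both corticosteroid receptors induce and that acts on ion channels and transporters. Its only probe set (1416041_at) read 1633, 1662 and 1128 in knockout-labelled DOX hearts, against 1342, 1019.95 and 2611 without treatment, and 1807, 2389 and 1789 in WT DOX hearts, against 1103, 1098 and 1568 without treatment. The WT groups did not overlap and the knockout-labelled groups did. The differences were 0.66 ± 0.31 in WT hearts (adjusted p = 0.291, limma) and -0.07 ± 0.31 in knockout-labelled hearts (adjusted p = 0.952), and the averaged one was 0.29 (95% confidence interval -0.20 to 0.78; adjusted p = 0.505). Without replicate 3 of the knockout-labelled no treatment group the difference in knockout-labelled hearts was 0.30 (adjusted p = 0.647) and the averaged one 0.48 (adjusted p = 0.0847). Sgk1 did not pass in any of these fits. Whether the palindrome in 1 of its windows bears on its level was not tested.

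**Figure D3:**
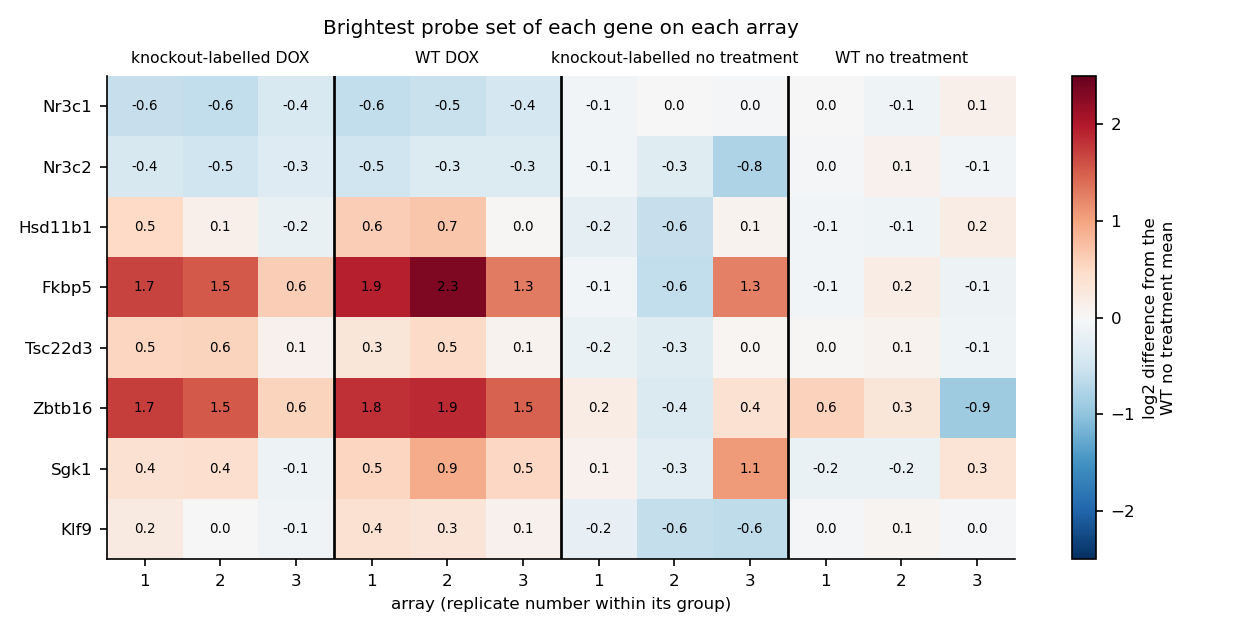
Log2 difference of (intensity + 32) from the WT no treatment mean for the brightest probe set of each gene (rows) on each of the 12 arrays (columns, grouped), red for higher and blue for lower. Fkbp5 and Zbtb16 are red and Nr3c1 blue on all 6 DOX arrays, and replicate 3 of the knockout-labelled no treatment group is red at Fkbp5 and Sgk1.

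The next comparison asked whether the genotype changed these levels. Without treatment no member probe set was called between knockout-labelled and WT hearts, where 1.81% of all probe sets were called in either direction. At an unadjusted p under 0.05 there were 6, all lower in knockout-labelled hearts, of which 5 read Klf9 and 1 Nr3c2, where 14.1% of all probe sets had such a p. Without replicate 3 of the knockout-labelled no treatment group the Nr3c2 difference was -0.19, against -0.38 with it. In 7 member probe sets the knockout-labelled arrays lay wholly below the WT arrays, where 10.7% of all probe sets did so, and 6 of these were the bright probe sets of Klf9. At 1428289_at, with the array values given above, Klf9 differed by -0.48 ± 0.12 (adjusted p = 0.093, limma), 1.39-fold lower in knockout-labelled hearts, and at the other 5 bright probe sets by -0.50 to -0.21. The brightest passed under 3 alternatives (adjusted p = 0.0375 among probe sets with a mean of at least 50, 0.047 with a trended and robust variance and 0.0425 with a replicate block) and without knockout-labelled no treatment replicate 1 (adjusted p = 0.0369). Without any other single array it did not pass, with an adjusted p of up to 0.267, and without knockout-labelled no treatment replicate 3 it was -0.40 (adjusted p = 0.264). In the same comparison 9 of 9 fibroblast markers had a higher mean in knockout-labelled hearts (median 0.63), 1 of them called. The 7 smooth muscle and pericyte markers summed to 15841 to 21294 in untreated knockout-labelled hearts, against 10725 to 12160 in untreated WT hearts. Of these 7, 6 had a higher mean in knockout-labelled hearts (median of the 7, 0.31), 1 of them called. The brightest in that sum were Rgs5 (6578 to 9239 over the 12 arrays) and Acta2 (943 to 13040). The part of these fibroblast and smooth muscle marker shifts in the Klf9 difference was not tested. Fkbp5, Zbtb16, Tsc22d3, Hsd11b1, Sgk1 and Nr3c1 overlapped between the genotypes at each probe set.

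**Figure D4:**
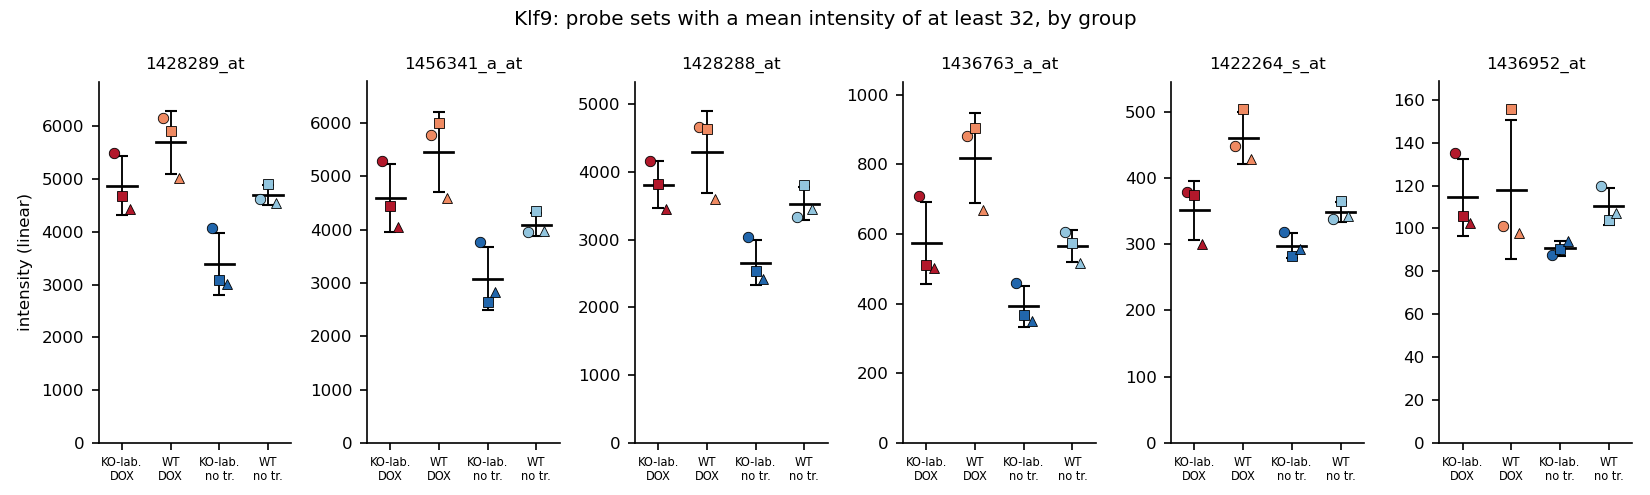
Linear intensity of the 6 Klf9 probe sets with a mean of at least 32 on each array (symbols for replicates 1 to 3), with group mean and SD (n = 3), for knockout-labelled (KO-lab.) and WT hearts after DOX and without treatment (no tr.). In all 6 panels the untreated knockout-labelled hearts lie below the untreated WT hearts.

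After DOX no member probe set was called between the genotypes either, where 0.941% of all probe sets were called. At an unadjusted p under 0.05 there were 2, both of Klf9 and both lower in knockout-labelled hearts, a smaller share of the 26 than the 15.5% of all probe sets with such a p. The one with the smaller p (1422264_s_at) read 378, 375 and 299.79 in knockout-labelled DOX hearts, against 448, 503 and 429 in WT DOX hearts, a difference of -0.37 ± 0.09 with no overlap (adjusted p = 0.0834, limma). Sgk1 lay wholly lower in knockout-labelled DOX hearts than in WT DOX hearts as well, at a difference of -0.44 (adjusted p = 0.556), and Fkbp5 and Zbtb16 differed by -0.58 and -0.45 with overlap. An exact permutation test of 3 against 3 hearts cannot give a p under 0.1, so these single comparisons rest on the fit across all probe sets.

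The interaction tests whether the DOX response in knockout-labelled hearts differs from that in WT hearts. It was called for no member and for 0% of all probe sets (limma), and no member probe set had an unadjusted p under 0.05, where 8.69% of all probe sets did. The smallest adjusted p among members was 0.642, at Nr3c2. The difference between the responses was -0.77 at Fkbp5 with a 95% confidence interval from -2.24 to 0.70, -0.52 at Zbtb16 (-1.79 to 0.75), -0.74 at Sgk1 (-1.72 to 0.24), 0.25 at Klf9 (-0.14 to 0.65) and 0.04 at Nr3c1 (-0.20 to 0.27). Without replicate 3 of the knockout-labelled no treatment group it was -0.23 at Fkbp5, -0.36 at Zbtb16, -0.36 at Sgk1 and 0.18 at Klf9, and at Nr3c2 it was 0.18, against 0.37 with that array. These intervals leave differences in either direction possible.

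A list of 38 other genes that glucocorticoids induce in various tissues, all matched, was set beside the members. In the averaged DOX response 14 rose and none fell, with a median log2 fold change of 0.56, and at an unadjusted p under 0.05 there were 27 higher and 1 lower. Over all probe sets 4.56% were called higher and 23.1% had an unadjusted p under 0.05 in that response. Those shares include dim probe sets, while each list gene was read by its brightest probe set. With 1 probe set per gene, 1133 of 18193 were called higher and 4989 had an unadjusted p under 0.05. Among probe sets with a mean of at least 50, 2171 of 17962 were called higher. In knockout-labelled hearts 3 of the 38 list genes rose and none fell, with a median of 0.43. In WT hearts 4 rose and none fell, with a median of 0.62. Over all probe sets 0.731% and 1.66% were called higher in these 2 comparisons. With 1 probe set per gene 307 and 419 of 18193 were called higher. Among probe sets with a mean of at least 50, 665 and 1178 of 17962 were called higher. That filter leaves out any list gene with a lower mean, so list counts under it need not be out of 38. With the methods' t-test the list had 7 calls in the averaged response and 0 in each genotype, and among probe sets with a mean of at least 50 it had 20, with 11 in knockout-labelled hearts and 12 in WT hearts. Fam107a, an actin-associated stress gene, rose by 2.03 in knockout-labelled hearts (adjusted p = 0.0373, limma) and by 2.31 in WT hearts (adjusted p = 0.0243). Sult1a1, a sulfotransferase, rose by 1.32 and 1.59 (adjusted p = 0.0301 and 0.0174). Sesn1, a stress-induced inhibitor of mTORC1 signalling, rose by 0.94 in knockout-labelled hearts, and Glul, glutamine synthetase, by 0.73 in WT hearts. Cdkn1a, the p21 cell cycle inhibitor that p53 also induces, rose by 3.05 in WT hearts (adjusted p = 0.0455) and differed by 1.02 in knockout-labelled hearts (adjusted p = 0.537).

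Beside these 5 genes, 9 more of the list rose in the averaged response. Among them were Pdk4, a brake on glucose oxidation (1.29), Angptl4, an inhibitor of lipoprotein lipase (1.09), Fbxo32, the ubiquitin ligase atrogin-1 (1.04), and Foxo3 and Foxo1, transcription factors upstream of it (0.65 and 0.36). Map3k6, Mertk, Pim3 and Tns2 rose by 1.13, 0.43, 0.68 and 0.50. Classic targets that did not pass were Per1 (0.25), Dusp1 (0.00), Mt2 (1.19), Ddit4 (1.26) and Anxa1 (-0.39). The count of 14 was 24 without replicate 3 of the knockout-labelled no treatment group, 7 without WT no treatment replicate 3, and 9 without knockout-labelled no treatment replicate 2 or WT DOX replicate 1 or 2. The 3 calls in knockout-labelled hearts became 0 without DOX replicate 1 or 2 or no treatment replicate 2 of that genotype, and the 4 calls in WT hearts became 0 without WT DOX replicate 1 or 2 or WT no treatment replicate 3.

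**Figure D5:**
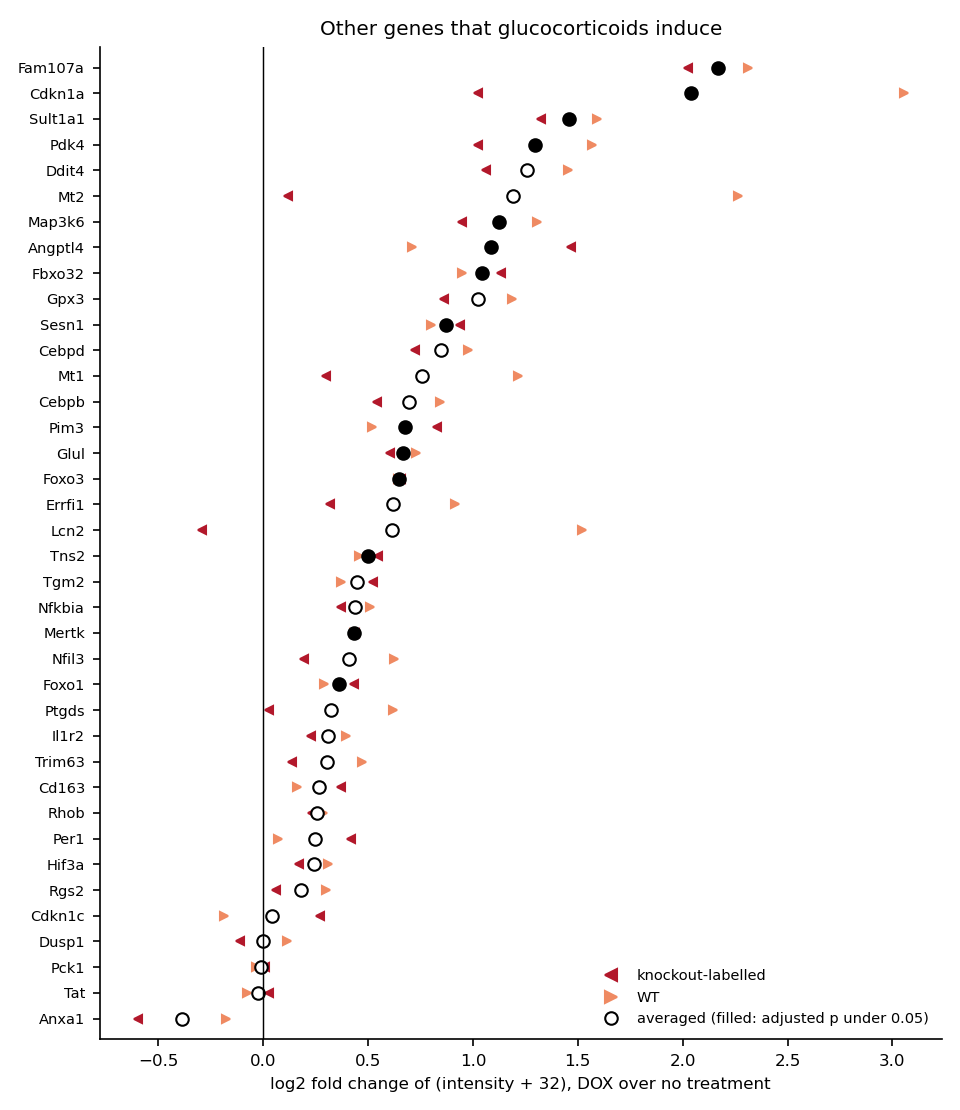
Log2 fold change of (intensity + 32), DOX over no treatment, of 38 further genes that glucocorticoids induce, sorted by the averaged response (circles, filled at an adjusted p under 0.05), with knockout-labelled hearts (dark red) and WT hearts (orange). The 14 filled circles all lie above 0, and Anxa1 lies lowest.

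Other parts of the pathway were counted in the same way. Of 11 matched receptor chaperones and cochaperones, Fkbp4, the cochaperone FKBP52 that competes with FKBP51 on the receptor complex, fell by 0.60 in WT hearts (adjusted p = 0.034, limma) and in the averaged response (-0.52, adjusted p = 0.00778), and no other passed there. None of 10 receptor coregulators passed a DOX comparison, and Carm1, an arginine methyltransferase, was lower in knockout-labelled hearts without treatment (-0.43, adjusted p = 0.0485). Of 11 genes of corticosteroid synthesis, binding and export, Abcb1a, which pumps corticosteroids out of cells, rose by 0.67 in knockout-labelled hearts (adjusted p = 0.0316) and by 0.60 in the averaged response. Of 6 other steroid hormone receptors Esr1 fell (-0.28) and Esrrb rose (0.39) in the averaged response. Of 15 inflammatory genes that glucocorticoids repress, the chemokine Ccl7 and the adhesion molecule Vcam1 fell in the averaged response (-0.53 and -0.56), and no other passed in any DOX comparison.

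Relatives of the members and their signalling partners gave scattered calls. Of 14 SGK1 partners and substrates, Pdpk1, the kinase that activates SGK1, rose by 0.55 in WT hearts (adjusted p = 0.0212, limma) and was lower in knockout-labelled than in WT hearts after DOX (-0.52, adjusted p = 0.0404). Ndrg2 rose (0.45) and Kcnq1 fell (-0.47) in WT hearts, and Mapkap1 fell in the averaged response (-0.25). Of 12 KLF and BTB zinc finger relatives 4 rose in the averaged response and none fell: Klf15, a glucocorticoid-induced regulator of cardiac metabolism, by 0.77, Klf11 by 0.47, Klf13 by 0.31 and Klf5 by 0.19. Of 12 FK506-binding and TSC22 relatives, Fkbp1a, Fkbp1b, Fkbp4, Fkbp7 and Tsc22d4 fell in the averaged response (from -0.55 to -0.17), and Tsc22d1 rose (0.35). Of 15 core clock genes, which take glucocorticoid as a timing cue, 4 fell and none rose in the averaged response: Dbp (-1.57), Ciart (-0.81), Bhlhe40 (-0.54) and Nr1d1 (-0.47). The hour at which hearts were taken is not given in the sources used here.

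Among 11919 probe sets naming a single gene with a mean intensity of at least 100, those most like Nr3c1 (1460303_at) over the 12 arrays were of Actb (r = 0.97), Pxdn (r = 0.97) and Marcks (r = 0.96). Those most like Fkbp5 were of Snrnp48, Atg13 and Mbd1 (each r = 0.97), and those most like Zbtb16 were of Ercc1 (r = 0.96), Gzf1 (r = 0.96) and Timp3 (r = 0.95). Those most like Klf9 were of Crebrf (r = 0.98), Nosip (r = 0.98) and Arih2 (r = 0.97), and those most like Tsc22d3 were of Ninj1, Dpep1 (each r = 0.94) and Gaa (r = 0.93). These Pearson correlations of log2 values describe 12 arrays that share the treatment, the genotype and the array scaling, and carry no p.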

How the data were processed

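RNA of 12 mouse hearts had been hybridised to Affymetrix mouse arrays, and the authors deposited 1 linear intensity per probe set and array, summarised with Affymetrix Expression Console per the labels. The summary method, the scaling and the version are not given in the sources used here. Gene names came from the platform annotation: 34945 of 45037 probe sets name 1 gene, 932 several and 9160 none. Array groups followed the sample labels. Log2(intensity + 32) was fitted in limma 3.58.1 (R 4.3.3) with 1 mean per group and empirical Bayes variances (8 residual degrees of freedom), and p-values were adjusted by Benjamini-Hochberg over all 45037 probe sets, with calls at an adjusted p under 0.05. Fold changes are on this offset scale, which understates changes of dim probe sets. A list gene is represented by its probe set with the highest mean. The 8 genes and all lists were chosen with earlier results of these data known. Every probe set of the 8 genes was reported, the brightest in full. Other genes were named where they passed, plus 5 well-known targets chosen after their values were seen. The 3 genes most like a member were named for each gene called in a comparison, including the averaged one, which was added after the values had been seen. Alternatives covered normalization, the added value, a filter on dim probe sets, the variance model, array weights, a replicate block, the methods' t-test and each array left out. The number of arrays limits precision, and p-values measure only the spread between these arrays. The fit was tested on simulated data for the DOX response in WT hearts (45037 probe sets). It recovered 43 of 67 changes of 1.5-fold, 64 of 67 of 2-fold and 63 of 66 of 4-fold, with 13 false calls. In the measured WT hearts, differences of 3.61-fold at Fkbp5 (1416125_at) and 3.29-fold at Zbtb16 (1439163_at) were not called. The recovery in simulated data therefore does not show that an uncalled difference was small. Figures and sequence searches used Python 3.11.15, pandas 2.3.3 and matplotlib 3.10.9.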

Additional observations from a re-analysis of the deposited data

How the results depend on the processing

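In knockout-labelled hearts the 2 member probe sets called for a DOX response became 6 among probe sets with a mean of at least 50, 6 with a trended and robust variance, 5 with a replicate block, 0 in a fit of only the arrays compared, 0 with the methods' t-test after Benjamini-Hochberg, and 0 to 4 without 1 array. In WT hearts the 2 became 4 with quantile normalization, 8 with 1 and 1 with 100 added before log2, 10 with the filter at 50, 4 with a trended and robust variance, 8 with array weights, 6 with the replicate block, 0 with the methods' t-test, and 0 to 5 without 1 array. The genotype difference without treatment had 0 member calls, and 1 with the filter, 1 with a trended and robust variance, 2 with the replicate block, and 0 to 1 without 1 array. The genotype difference after DOX and the interaction had 0 member calls under each of these settings. The 16 calls of the averaged response became 5 with the methods' t-test, 5 of 8 with 1 probe set per gene, and 6 to 17 without 1 array. The labels do not say that replicate numbers pair the arrays, and the main fit did not pair them. Of 18 same-numbered pairs, 3 had a correlation of deviations over 0.1 (from -0.25 to 0.15). Such correlations, from groups of 3 arrays, cannot exclude pairing or a shared batch. Of 3398 values of single probe sets under the alternatives, 94 lost and 66 gained a call. The sign differed from that of the reported value in 102, and in 0 of these had the reported value been called.

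Over all probe sets, calls in knockout-labelled hearts were 990, against 1705 of 17962 with the filter, 1189 with a trended and robust variance and 1095 with a replicate block. They were 79 with only the arrays compared, 0 with the methods' t-test and 116 to 1090 without 1 array. In WT hearts they were 1379, against 2114 with the filter, 2555 with array weights, 911 with only the arrays compared, 4 with the t-test and 41 to 2285 without 1 array. For the genotype after DOX they were 424, against 745, 720, 2, 0 and 19 to 893 in that same order of settings, and without treatment 817, against 1379, 1414, 206, 3 and 84 to 1206. In WT hearts other settings gave 1630 calls with quantile normalization, and 1933 with 1 and 1043 with 100 added before log2. A trended and robust variance gave 1985 there and 908 for the genotype without treatment. The replicate block gave 1335 and 832. The interaction had 0, against 3 with 1 added before log2, 3 with the filter, 4 with a trended and robust variance, 5 with array weights and 0 to 2 without 1 array. The averaged response had 4121, against 4353 with the filter, 2146 with the t-test, 2606 with 1 probe set per gene and 2249 to 4837 without 1 array. Quantile normalization gave 525 higher and 637 lower calls in knockout-labelled hearts, against 329 and 661, and 233 and 262 for the genotype after DOX, against 131 and 293. The cause of these shifts was not tested. Dim probe sets, 5 of the 26, limit what can be said of their transcripts.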

Other observations

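Replicate 3 of each DOX group stood lowest at most of the induced members, a pattern chosen after the values were seen. Of the 14 probe sets of Fkbp5, Zbtb16, Klf9 and Tsc22d3 with a mean of at least 32, it was the lowest array in 14 among knockout-labelled DOX hearts and in 13 among WT DOX hearts. These 14 read only 4 genes and are not independent, and the share over all probe sets was not counted. For Nr3c1, which fell after DOX, it was the highest array at 3 of 4 bright probe sets in knockout-labelled DOX hearts and at 2 of 4 in WT DOX hearts. Replicate numbers carry no shared batch or day in the labels.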
